A study of Mus musculus with 6 samples.

Results

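Peaks of the chromatin coregulator HCFC1 that lie in the first intron of a transcript were examined in 3 deposited peak lists from Hepa1-6 cells, a mouse hepatoma line labelled as a hepatocyte with a WT genotype. A peak was a member when its deposited annotation named an intron and read "intron 1 of". By this rule 6716 of 36147 peaks (18.6%) were members in cells given control siRNA, 4726 of 21881 (21.6%) in cells given siRNA against ERRα, and 2546 of 12610 (20.2%) in cells given siRNA against HCFC1. They were split by the deposited distance from the peak centre to the nearest transcription start. Members up to 2000 bp from a start are called near and those farther away deep. The choice of peaks used no score or overlap.

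The control cells received a pool of scrambled siRNAs, so all 3 groups were transfected. Cells were transfected with 100 nM siRNA, received a repeat dose 48 h later (200 nM in total) and were taken at 96 h. HCFC1 was immunoprecipitated and the DNA sequenced (ChIP-seq), with 1 HCFC1 library per group. A note deposited with the lists states that each library pooled 2 independent immunoprecipitations. The 3 IgG libraries were not analysed here. Without a second library per group there is no replicate spread and no p-value. Shares are given with exact 95% intervals by the Clopper-Pearson method, and these reflect only the error of counting. Read depth is unknown, and neither RNA nor protein was analysed here, so the extent of each knockdown is not known.

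HCFC1 does not bind DNA by itself. It is carried to chromatin by DNA-binding proteins, among them THAP11 and ZFP143, and it brings enzymes that modify histones, such as the SET1 methyltransferases. ERRα is the product of Esrra and, as an orphan receptor, acts on genes of energy metabolism. The first intron begins a short way downstream of the start and often holds regulatory sequence, and its first stretch can lie within the same CpG island as the promoter. In the deposited annotation the positions next to a start carry a promoter label, so the nearest first-intron peak was centred 101 bp from a start.

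The letters bound by THAP11 and ZFP143 were found at the starts next to the strongest near peaks. The stretches shown come from RefSeq (GRCm38.p6) windows that run from 250 bases before to 50 bases after a start, for genes whose near control peak was among the 60 with the highest scores and a matching window. Capitals mark ACTACA and CCC, which stand 3 bases apart, and each stretch is written along the strand on which these letters read 5′ to 3′.
Sympk, chr7:19024238-19024269, plus strand: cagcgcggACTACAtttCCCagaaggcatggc
Phb, chr11:95666739-95666770, plus strand: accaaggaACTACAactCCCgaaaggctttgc
Calcoco1, chr15:102722259-102722290, minus strand: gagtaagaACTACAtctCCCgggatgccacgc
Capn15, chr17:25985835-25985866, minus strand: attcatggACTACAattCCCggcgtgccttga
Pa2g4, chr10:128566058-128566089, plus strand: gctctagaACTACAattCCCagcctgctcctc
Phf13, chr4:151996229-151996260, minus strand: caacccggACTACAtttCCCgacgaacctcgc
Ap2s1, chr7:16738378-16738409, plus strand: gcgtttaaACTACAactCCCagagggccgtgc
Zfr, chr15:12117760-12117791, plus strand: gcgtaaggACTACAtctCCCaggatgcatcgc
Cwc22, chr2:77946427-77946458, minus strand: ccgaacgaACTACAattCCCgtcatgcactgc
Rpp30, chr19:36083622-36083653, plus strand: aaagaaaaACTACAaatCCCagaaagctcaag
Rpl6, chr5:121204436-121204467, plus strand: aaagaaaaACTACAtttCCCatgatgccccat
Ndufv1, chr19:4012837-4012868, minus strand: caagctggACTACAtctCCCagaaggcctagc

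The windows of the 60 strongest near peaks held 30 such stretches at 23 genes, and all 30 lay inside the HCFC1 peak. These peaks mostly covered the start and were wider than the 300-base windows, so that place was nearly fixed in advance. In 5 genes the window held more than 1 stretch. The whole 300-base windows of Dffa, which encodes the inhibitor subunit of a DNA fragmentation factor, and of Phb, which encodes prohibitin of the inner mitochondrial membrane, are shown because they hold 3 and 2 copies. The copies of Dffa begin 90 and 40 bases before the start and 6 bases past it, all on the strand of the gene. In Phb the second copy is on the other strand and so reads GGG, 3 bases, TGTAGT.
Dffa, chr4:149103892-149104191, plus strand: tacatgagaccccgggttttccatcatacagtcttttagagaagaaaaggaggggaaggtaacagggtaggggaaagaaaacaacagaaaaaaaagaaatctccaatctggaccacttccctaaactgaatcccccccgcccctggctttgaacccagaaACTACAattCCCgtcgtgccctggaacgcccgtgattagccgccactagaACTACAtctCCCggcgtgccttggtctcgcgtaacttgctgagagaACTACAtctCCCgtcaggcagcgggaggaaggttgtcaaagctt
Phb, chr11:95666707-95667006, plus strand: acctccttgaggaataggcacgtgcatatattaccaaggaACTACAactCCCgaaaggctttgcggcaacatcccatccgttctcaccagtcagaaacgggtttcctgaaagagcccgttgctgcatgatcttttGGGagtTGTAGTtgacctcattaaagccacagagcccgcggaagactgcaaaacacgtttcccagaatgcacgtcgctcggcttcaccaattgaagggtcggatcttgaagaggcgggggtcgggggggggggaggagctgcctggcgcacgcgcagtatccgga

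Among near peaks the letters were most frequent at the highest scores. The score is the authors' own value per peak, and it is used here only to rank peaks within a list. When all control peaks were put in 10 bins of equal size by score, 59 of 513 start windows of near peaks in the highest bin held the letters (11.5%, 8.87 to 14.6%). In the next bin it was 1 of 527 (0.19%, 0.0048 to 1.05%), and in the other 8 bins between 1.28% and 4.37%. Of all 32851 start windows, 686 held them (2.09%), and of 21263 windows of protein-coding genes 615 did (2.89%). Over all scores the letters were in 100 of 2527 windows of near peaks (3.96%, 3.23 to 4.79%) and in 64 of 1426 of deep ones (4.49%, 3.47 to 5.7%), with intervals that overlap. The step to the highest bin is seen in the plot of start windows by score bin. This bin includes the 60 strongest near peaks, of whose windows 23 held the letters.

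**Figure D1:**
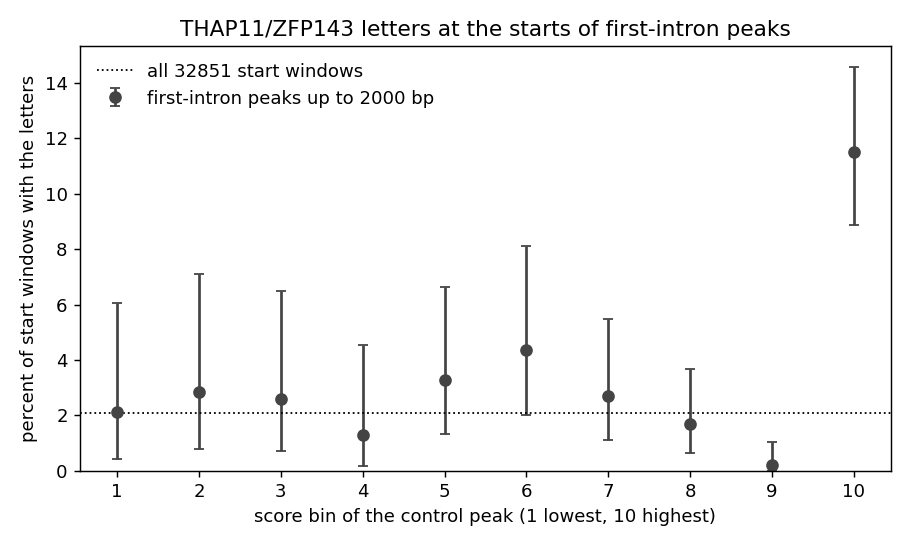
Percent of RefSeq start windows (250 bases before to 50 after a start) that held the THAP11/ZFP143 letters on either strand, for near first-intron peaks of the control list in 10 score bins. Points are shares with exact 95% intervals, and the dotted line is the share of all 32851 windows. The highest bin stands at 11.5% and the ninth at 0.19%. This form of the letters was chosen after windows of the strongest peaks, which are in the highest bin, had been read.

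This form of the letters, called looser below, was chosen after windows of the strongest peaks had been read. Without the windows of the 60 strongest peaks, 36 of 455 in the top 10% of the list still held it (7.91%, 5.6 to 10.8%), against 43 of 2038 for all lower near peaks (2.11%, 1.53 to 2.83%). Another form, ACTACAATT on either strand, does not ask for CCC. It was found in 11 of 515 windows of the top 10% (2.14%, 1.07 to 3.79%) and in 4 of 2038 lower ones (0.196%). Over all near peaks 14 of 2527 windows held it (0.554%). Among all windows it was 129 of 32851 (0.393%), and among those of protein-coding genes 108 of 21263 (0.508%). In the highest bin all 59 windows with the looser letters belonged to peaks overlapped in the HCFC1-knockdown list. The letters were in 59 of 460 such windows (12.8%, 9.91 to 16.2%). Of 53 windows of peaks not overlapped there, 0 held them (0 to 6.72%). Without the 60 strongest peaks it was 36 of 400 (9%, 6.38 to 12.2%) and again 0 of 53, with intervals that overlap. Scores in this bin ran from 178 to 30879, and near peaks without a counterpart after HCFC1 knockdown reached at most 626. These sets were thus not matched for score. In the ninth bin, 0 of 334 windows of overlapped peaks and 1 of 193 of the others held them. Promoter-labelled peaks had the same step, with 292 of 1540 windows in the top 10% (19%) and 18 of 2870 below (0.627%).

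Other letters were searched in the same windows on both strands. The ETS core TTCCGG, bound by GABP and related factors, was in 202 of 515 windows of the top 10% (39.2%, 35 to 43.6%), in 470 of 2038 of the lower near peaks (23.1%) and in 14.9% of all windows. The NRF1 letters GCGCANGCG were in 18.1%, 12.4% and 6.25% of these sets. The NFY letters GATTGGCT were in 4.27%, 5.89% and 3.84%. The ERR letters AAGGTCA, to which ERRα itself can bind, was in 3.69% (2.24 to 5.7%), 2.75% and 4.72%. The median GC content of the windows was 60% in the top 10%, 62.7% in the lower near peaks and 52.7% over all windows. A match of letters is a description and not a measured site. The windows matched 2674 of 3548 near control peaks (75.4%) and 2220 of 3168 deep ones (70.1%). They lie at the start and not under a deep peak, and no genome sequence was at hand to search under deep peaks.

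The lists differ in reach, which bears on every value for deep peaks. Both knockdown lists end at 20 kb: their farthest peaks lie 19993 and 19994 bp from a start. The ERRα-knockdown list holds 361 peaks at 18 to 20 kb and none at 20 to 22 kb, and the HCFC1-knockdown list 235 and none. The control list runs on without a step, with 639 and 599 peaks in the same ranges, and reaches 1710904 bp. It holds 10630 peaks beyond 20 kb (29.4%), of which 879 are in first introns. A control peak beyond 20 kb could therefore hardly be overlapped in a knockdown list: 1 of the 879 was in the ERRα-knockdown list and 0 in the other (0 to 0.419%). Overlap shares of deep control peaks are given within 20 kb, which leaves 2289 of 3168, except where all deep peaks are named. Widths, ranks and labels of deep control peaks cover all 3168.

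**Figure D2:**
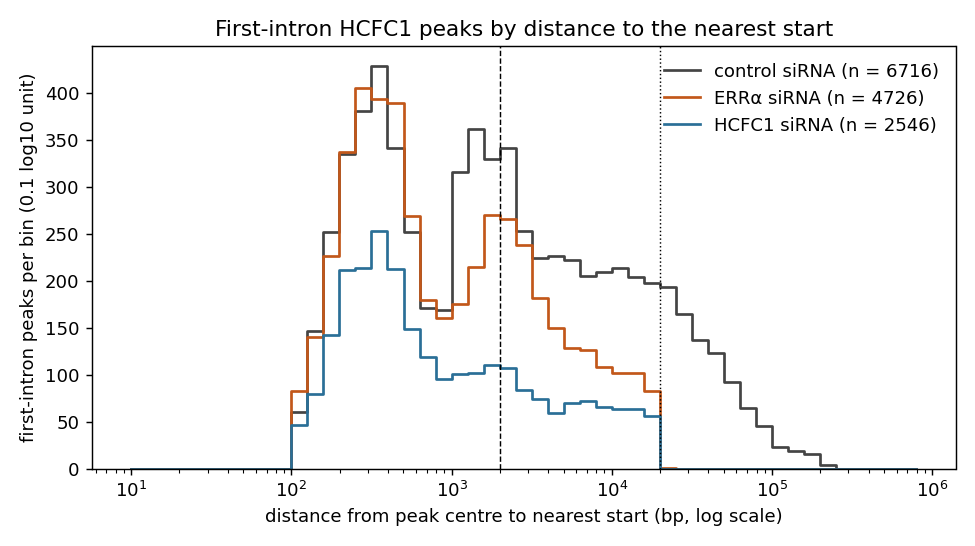
Number of first-intron peaks in bins of distance from the peak centre to the nearest start (log scale) in the 3 lists. The dashed line marks 2000 bp and the dotted line 20 kb. Both knockdown lists stop at the dotted line, and the control list goes on to 240209 bp.

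Near peaks made up 52.8% of the control first-intron peaks (3548). Their share was 68.6% after ERRα knockdown (3243) and 72% after HCFC1 knockdown (1834). With the control list restricted to 20 kb its share was 60.8%. The number of near peaks thus differed little between control and ERRα knockdown, while deep peaks within 20 kb numbered 2289, 1483 and 712. Peaks at 500 to 1000 bp and at 1000 to 2000 bp numbered 596 and 1013 in control, 611 and 661 after ERRα knockdown, and 367 and 315 after HCFC1 knockdown. A second rise in number on the log scale of distance was thus clearest in the control list. The closest peaks on either side were those of Ptges3 and Pa2g4 at 1999 bp (scores 44 and 39) and those of Slf2 and Shb at 2001 bp (scores 54 and 35).

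Near peaks were wider and ranked higher than deep ones in each list. In control cells the median width was 648 bp near and 325 bp deep. The medians were 990 and 413 bp after ERRα knockdown and 533 and 349 bp after HCFC1 knockdown. The median score percentile within the list was 71.9 near and 37.3 deep in control, 65.9 and 27.2 after ERRα knockdown, and 55.8 and 33 after HCFC1 knockdown. Promoter-labelled peaks ranked higher still, with medians of 83.2, 75.5 and 68.3. Of the near control peaks 675 (19%) were in the top 10% of the list, and of the deep ones 15 (0.473%).

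Near and deep peaks also differed in the sequence under their centres. A CpG island label was held by 44.6% of near control peaks (43 to 46.3%) and by 1.99% of deep ones (1.53 to 2.54%). The shares were 50.4% and 3.37% after ERRα knockdown and 61.7% and 2.53% after HCFC1 knockdown. By distance the control share fell from 74.6% at 100 to 250 bp to 34.6% at 500 to 1000 bp and 6.02% at 1000 to 2000 bp. In the HCFC1-knockdown list the share at 1000 to 2000 bp was 19.4%. A repeat was named at 7.92% of near and 25% of deep control peaks. SINE elements were the largest class at deep control peaks (302 of 3168, 9.53%), followed by LTR elements (228, 7.2%). At peaks of later introns beyond 2000 bp the shares of these classes were 7.49% and 7.17%.

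Part of the near peaks reached back over the start itself. Among near peaks with a matching start window, 1268 of 2674 in control (47.4%, 45.5 to 49.3%), 1641 of 2460 after ERRα knockdown (66.7%, 64.8 to 68.6%) and 534 of 1399 after HCFC1 knockdown (38.2%, 35.6 to 40.8%) covered it. The order follows that of the median widths. Deep peaks covered it in 0 of 2220, 5 of 1084 and 0 of 500 cases, and promoter-labelled peaks in 83.9%, 91.8% and 82.1%. The place label follows the centre of a peak, so a near peak may also lie over the promoter.

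The strongest near peak of control cells lay at Usp5, a deubiquitinase that takes apart free ubiquitin chains (chr6:124827069-124830897, score 16485, centre 501 bp from the start). It was the second highest of all control peaks. Next came Ddx23, a helicase of the spliceosome (score 12073, 140 bp), and Sympk, the scaffold of mRNA 3′ end processing (7530, 512 bp). Fbxw11, a substrate receptor of an SCF ubiquitin ligase (7098), Derl1, a channel component for the disposal of misfolded proteins of the endoplasmic reticulum (7020), 9430015G10Rik (6712), Phb (6419) and Calcoco1 (6368) completed the 8 highest. All 8 were overlapped in both knockdown lists, and none of these genes had a promoter-labelled peak in the control list. In the highest score bin, 3537 of 3538 control peaks within 20 kb were overlapped in the ERRα-knockdown list and 3220 in the HCFC1-knockdown list. Ddx23, Derl1, 9430015G10Rik and Calcoco1 were also among the 8 highest near peaks after ERRα knockdown. The first near peak after HCFC1 knockdown was that of Fen1, a flap endonuclease of DNA replication (score 8022, second of that list), followed by Calcoco1 (6262) and Pa2g4, a growth regulator that binds ErbB3 (4877).

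Deep peaks had far lower scores. The highest in control cells was that of Tpd52 (chr3:8969995-8973610, score 1927, rank 382 of the list). Its centre lies 7656 bp upstream of the nearest start, in the first intron of another transcript. The second, at Filip1l (score 1581, 420 bp wide, 38189 bp from a start), was in neither knockdown list and lies beyond their reach. Its deposited detailed label names an rRNA repeat. Zfp65, a zinc finger gene, had a score of 779, Dlg4, which encodes the postsynaptic scaffold PSD-95, 736, and Cavin1, a coat protein of caveolae, 586. Hdgf had 586 too, and Ftx, a noncoding RNA gene of the X inactivation centre, 421. Of the 8 highest, 7 were overlapped in the ERRα-knockdown list and 6 in the HCFC1-knockdown list, where Ftx was missing besides Filip1l. Of all 12 deep peaks within 20 kb in the highest score bin, 12 and 9 were overlapped. Usp5 headed the deep peaks after ERRα knockdown, because a peak of 7520 bp there had its centre 2268 bp from the start, over the same place as the near control peak of 3828 bp.

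Some first introns held many separate peaks. Of 4498 genes with a first-intron peak in control cells, 3332 had 1. Trio, a guanine nucleotide exchange factor, had 21, of which 20 were deep, spread over 99.7 kb. Myo10, an unconventional myosin of filopodia, had 14 over 144 kb, and 4 of them were overlapped in the ERRα-knockdown list and 0 in the other. Fam49b also had 14. The widest first-intron peak, 7449 bp, lay at Kmt2d, a histone H3 lysine 4 methyltransferase (score 1923), and was 11589 bp wide after ERRα knockdown. The farthest, at the potassium channel gene Kcnq5, was 240209 bp from a start with a score of 18.

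After ERRα knockdown most near control peaks shared at least 1 bp with a listed peak, and most deep ones did not. The share was 76.1% near (2699 of 3548, 74.6 to 77.5%) and 22.4% deep within 20 kb (512 of 2289, 20.7 to 24.1%). Of all control peaks 40.6% were overlapped, and of those within 20 kb 57.5%. Near peaks stood below promoter-labelled ones (88.2%) and above near peaks of later introns (57.8%, 339 of 587). These 2 near classes were not matched for distance, with medians of 445 bp in first and 1350 bp in later introns. First-intron peaks at 1000 to 2000 bp had 45.2% (42.1 to 48.3%). Deep first-intron peaks were close to deep peaks of later introns within 20 kb (24.6%, 23.1 to 26.2%), with intervals that overlap. Overlapped near peaks had a median score of 80 and a width of 854 bp, and the others 30 and 315 bp. The difference between near and all deep control peaks, 59.9 percentage points, was 34.1 when the centres had to lie within 200 bp.

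After HCFC1 knockdown the share was 41.9% near (1486 of 3548, 40.3 to 43.5%) and 7.3% deep within 20 kb (167 of 2289, 6.26 to 8.44%). Over the whole control list it was 22.3%, and within 20 kb 31.5%. Near peaks of later introns had 19.6% (16.5 to 23%), which is less than near first-intron peaks by more than both intervals. The classes were not matched for distance, and first-intron peaks at 1000 to 2000 bp had 15.5% (13.3 to 17.9%). Promoter-labelled peaks had 55.6%. Deep peaks of later introns within 20 kb had 9.53% (8.52 to 10.6%), just above deep first-intron peaks. By pattern, 1434 near peaks (40.4%) were in both knockdown lists, 1265 (35.7%) only in the ERRα-knockdown list, 52 (1.47%) only in the HCFC1-knockdown list and 797 (22.5%) in neither. For deep peaks within 20 kb the numbers were 101 (4.41%), 411 (18%), 66 (2.88%) and 1711 (74.7%). Over all control peaks within 20 kb the shares were 29.4%, 28.1%, 2.15% and 40.4% in this order. The 2 knockdown lists are compared with the same control list, so these counts are not independent. The difference between near and all deep control peaks in the HCFC1-knockdown list, 36.6 percentage points, was 18.1 with a reciprocal overlap of 50% and 21.9 with centres within 200 bp.

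**Figure D3:**
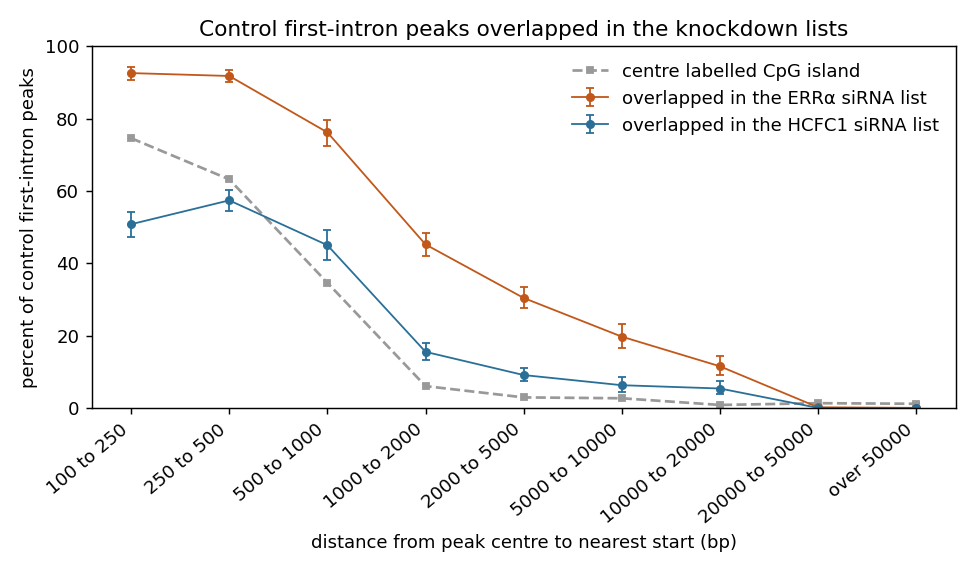
Percent of control first-intron peaks overlapped by at least 1 bp in each knockdown list, by distance from the peak centre to the nearest start, with exact 95% intervals. The dashed line is the percent with a CpG island label. The ERRα-knockdown share falls from 92.6% at 100 to 250 bp to 11.5% at 10000 to 20000 bp, and the last 2 bins lie beyond the reach of the knockdown lists.

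The shares fell with distance by degrees and not at a single limit. In the ERRα-knockdown list they were 92.6% at 100 to 250 bp, 91.8% at 250 to 500 bp, 76.2% at 500 to 1000 bp, 45.2% at 1000 to 2000 bp, 30.4% at 2000 to 5000 bp and 11.5% at 10000 to 20000 bp. The HCFC1-knockdown list differed at the near end, where the share was 50.8% (47.2 to 54.3%) at 100 to 250 bp and 57.4% (54.5 to 60.3%) at 250 to 500 bp. It then went to 45%, 15.5%, 9.08% and 5.36% in the same ranges.

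The gap between near and deep peaks was also seen among peaks of like score. In the eighth of the 10 bins, with scores from 53 to 79, 85.4% of 473 near peaks (81.9 to 88.5%) and 42.9% of 170 deep peaks within 20 kb (35.4 to 50.7%) had a counterpart after ERRα knockdown. The HCFC1-knockdown list overlapped 37.2% (32.8 to 41.7%) and 11.8% (7.34 to 17.6%) of them. Median widths in this bin were 706 bp near and 485 bp deep. In the lowest bin, where the widths were 302 and 300 bp, the shares were 43.3% and 9.54% in the ERRα-knockdown list and 10.3% and 3.89% in the other, where the intervals overlap (6.41 to 15.5% and 1.96 to 6.85%). In the highest bin 673 of 673 near and 12 of 12 deep peaks were overlapped in the ERRα-knockdown list.

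**Figure D4:**
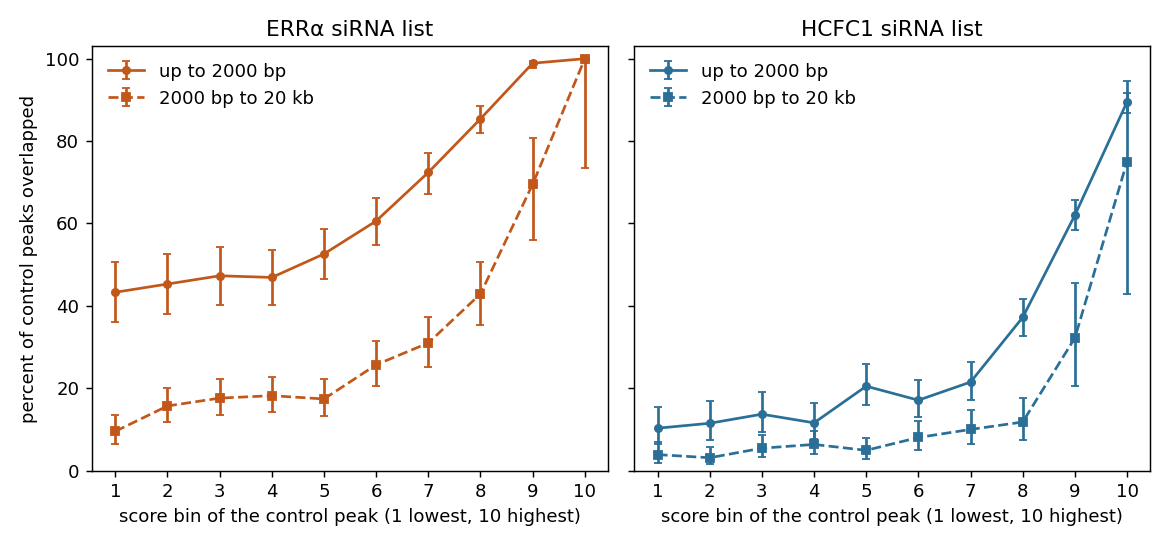
Percent of control first-intron peaks overlapped in each knockdown list in 10 bins of control score, for near peaks (solid) and deep peaks within 20 kb (dashed), with exact 95% intervals. Near peaks lie above deep ones in each bin up to the ninth for both lists, and in the highest bin both classes reach 100% in the ERRα-knockdown list.

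Within near peaks the CpG island label went with a higher share. The ERRα-knockdown list overlapped 96.2% of 1583 labelled peaks (95.1 to 97.1%) and 59.8% of 1965 others (57.6 to 62%), and the HCFC1-knockdown list 61.7% and 25.9%. Labelled peaks were also the wider ones, with medians of 926 and 436 bp. In the lowest score bin, 15 of 18 labelled peaks (83.3%) and 69 of 176 others (39.2%) were overlapped after ERRα knockdown. In the eighth bin, 95.6% and 73.9% were, and after HCFC1 knockdown 44.6% (38.4 to 51%) and 28.8% (23 to 35.3%). In the highest bin the order was the other way after HCFC1 knockdown, 88.8% and 91%, with intervals that overlap.

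Read from the other side, 76% of near peaks after ERRα knockdown (2465 of 3243) were overlapped in the control list and 30.7% of deep ones (456 of 1483), where 59.5% of all peaks of that list were. After HCFC1 knockdown it was 83.5% near (1532 of 1834) and 24% deep (171 of 712), against 65.9% of that list. The near minus deep difference for these peaks, 59.5 percentage points, was 30.1 with a reciprocal overlap of 50% and 34 with centres within 200 bp. For the ERRα-knockdown peaks it was 45.3 as reported and 29.4 with centres within 200 bp. Of near peaks after HCFC1 knockdown 89.4% were also in the ERRα-knockdown list and of deep ones 28.4%, against 71.1% of all. In the reverse direction the shares were 47.5% and 11.4%, against 36.9%.

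An overlapping peak did not always carry the same label. For near control peaks, the overlapping ERRα-knockdown peak was a near first-intron peak in 58.5% of cases, a promoter-labelled one in 21.9%, an exon one in 8.48% and a 5′ UTR one in 7.15%. The ERRα-knockdown peak was the wider of the pair in 76% of cases, and the HCFC1-knockdown peak in 16.1%. The centres differed by a median of 171 and 158 bp. For deep peaks within 20 kb, 83.8% of the overlapping ERRα-knockdown peaks were deep first-intron peaks too. Of near peaks after ERRα knockdown 278 (8.57%) spanned more than 1 control peak. Counts of genes with a near peak in each list mix such changes of label with gain or loss: 1639 of 3284 control genes with a near peak (49.9%) also had one in the ERRα-knockdown list, where 76.1% of the peaks were overlapped.

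The strongest near control peak without a counterpart after HCFC1 knockdown was that of Dnm1, a dynamin of vesicle scission (chr2:32352122-32353949, score 626, rank 1332). Psmb6, a catalytic subunit of the proteasome, followed with 559, the RNA methyltransferase gene Mettl16 with 551, the small GTPase gene Rac1 with 513, the tRNA modifying enzyme gene Alkbh8 with 469 and Dnttip1 with 446. All 6 were overlapped after ERRα knockdown. After ERRα knockdown the missing near peaks were weaker. The first was at 2610005L07Rik (score 115), and Fuom (108), Spata1 (83), Itprip (82) and Urgcp (81) were others, and none of those named was in the HCFC1-knockdown list either. Missing deep peaks within 20 kb were headed by E030030I06Rik (151) after ERRα knockdown and by Ftx (421) and D230017M19Rik (246) after HCFC1 knockdown.

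Near peaks found after a knockdown and not in the control list numbered 778 of 3243 for ERRα and 302 of 1834 for HCFC1. Over the whole lists it was 8857 of 21881 and 4297 of 12610, a larger share in each. The near peaks not in the control list had median scores of 35 and 28. The medians were 172 and 44 for the near peaks of the same list that a control peak overlapped. The homeobox gene Nkx2-4 had one in both knockdown lists (chr2:147083811-147085843 after ERRα knockdown, score 170, percentile 73.3 of that list, and score 198, percentile 92.8, after HCFC1 knockdown). After ERRα knockdown Tns3 (189), Zranb3 (187) and Reep1 (176) ranked above it. After HCFC1 knockdown it was followed by Runx3, a Runt domain factor (102), Otud4 (102), Ldlrad3 (97) and Efna5 (92). Of those named, only Efna5 had no counterpart after ERRα knockdown. Among deep peaks the first were at Pax2, a paired box factor of the kidney (208, after ERRα knockdown), and at Gm3704 (229, after HCFC1 knockdown).

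Hcfc1, one of the targeted genes, had a control peak 1830 bp from the start (chrX:73964094-73964960, score 76, percentile 79.4 of its list), which lay under a wide ERRα-knockdown peak and was in no HCFC1-knockdown peak. Hcfc1 also had a promoter-labelled peak in the control list, so this was not its only peak. Esrra had a first-intron peak in the ERRα-knockdown list alone (chr19:6919909-6922524, score 96, percentile 62.7), which overlapped a control peak labelled as a transcript end (score 125).

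Genes with near peaks less often had a promoter-labelled peak as well than genes with deep peaks. In control cells 24.1% of 3284 genes with a near peak had one (22.7 to 25.6%), and 39.1% of 1876 genes with a deep peak (36.9 to 41.3%). The shares were 14.7% and 40.1% after ERRα knockdown and 14.1% and 28.1% after HCFC1 knockdown. Of all protein-coding genes, 23.5% had such a peak in the control list. The ERRα-knockdown list had one at 22.3% of them and the HCFC1-knockdown list at 15.3%. Genes with a deep peak stood above this background in each list. Genes with a near peak stood below it in the ERRα-knockdown list (13.4 to 16%). In the other lists their intervals included it (22.7 to 25.6% and 12.5 to 15.8%). The label follows the centre, so a near peak that covers the start is not itself counted as promoter-labelled. How far this bears on the shares was not tested. Genes with a deep peak were longer, with a median span of 44.8 kb against 25.6 kb for near and 17.1 kb for all 21900 protein-coding genes. The gene of the intron was another than that of the nearest start for 1.89% of near and 8.91% of deep control peaks.

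Of all protein-coding genes 14.4% had a near and 7.72% a deep control peak, and 12 gene lists are set beside these shares. Oxidative phosphorylation, the respiratory chain and ATP synthase, had near peaks at 21 of 71 genes (29.6%, 19.3 to 41.6%) and deep ones at 4 (5.63%). Its strongest near peaks lay at complex I subunit genes, Ndufv1 (score 1691), Ndufa9 (1047), Ndufb7 (929) and Ndufa12 (495), and each was overlapped in both knockdown lists. Its deep peaks, led by Atp5j (34), were overlapped in neither. Cytosolic ribosomal proteins had near peaks at 23 of 78 genes (29.5%, 19.7 to 40.9%), among them Rps23 (1842), Rpl6 (1821) and Rps20 (1426), all 3 overlapped in both knockdown lists. Only 2 of the 78 had a deep peak, Rplp0 and Rps15, and those lie in introns of Pxn and Bc1. The near peaks named for both lists were in the highest score bin. Of its 673 near peaks, 673 were overlapped after ERRα knockdown and 602 after HCFC1 knockdown.

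**Figure D5:**
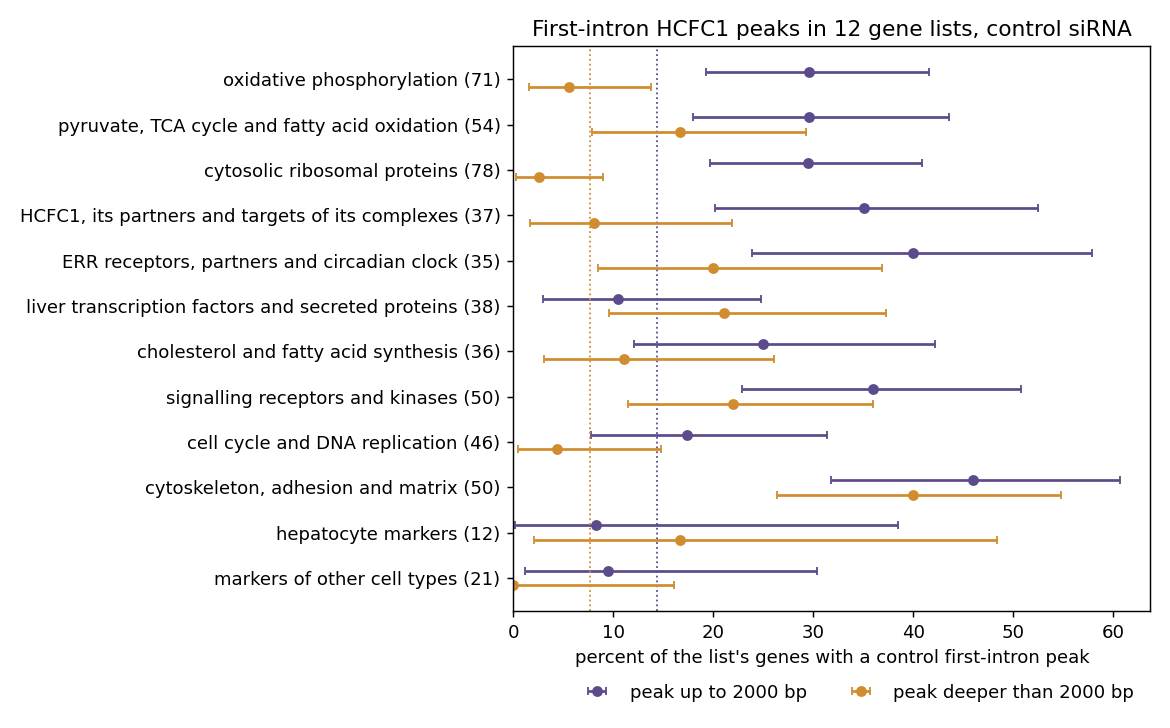
Percent of the genes of 12 lists (number of genes in brackets) with a near or a deep first-intron peak in control cells, with exact 95% intervals. Dotted lines are the shares of all protein-coding genes, 14.4% near and 7.72% deep. The cytoskeleton list stands highest in both classes, at 46% and 40%.

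Genes of the cytoskeleton, adhesion and matrix had the highest shares of both kinds, 23 of 50 near (46%, 31.8 to 60.7%) and 20 of 50 deep (40%, 26.4 to 54.8%). Near peaks of this list were led by Rac1 (513), the actin gene Actb (297), Tuba1a (168) and the integrin gene Itgb3 (134). Among its 4 strongest deep peaks, that of the nonmuscle myosin gene Myh9 (68) was overlapped only after HCFC1 knockdown and that of Rac1 (56) only after ERRα knockdown. Signalling receptors and kinases had 18 of 50 near, led by the kinase gene Akt2 (157), and 11 deep, led by the Hedgehog receptor gene Ptch1 (100). Genes of longer span have more first-intron sequence, and length was not matched between lists.

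ERR receptors, their partners and the circadian clock had near peaks at 14 of 35 genes (40%, 23.9 to 57.9%) and deep ones at 7. Near peaks of this list included the coactivator genes Ncoa3 (1879) and Ncoa2 (146) and the clock repressor gene Nr1d2 (99). The deep peaks were led by Prox1 (166), a factor of hepatic development, in an intron of its antisense transcript Prox1os. HCFC1, its partners and the targets of its complexes had 13 of 37 near, with the zinc finger factor gene Zbtb17 (1259), the paralog Hcfc2 (511), E2f4 (250) and Nrf1 (179) at the top. They had 3 deep, in Foxk1, Foxk2 and Zfp143. Pyruvate, TCA cycle and fatty acid oxidation genes had 16 of 54 near, led by Dlst (385), a subunit of the 2-oxoglutarate dehydrogenase complex, and 9 deep, led by Suclg2 (80) and the carnitine palmitoyltransferase gene Cpt1a (58).

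Cholesterol and fatty acid synthesis had 9 of 36 near, led by Hmgcs1 (211), and 4 deep. Cell cycle and DNA replication had 8 of 46 near, led by the clamp loader gene Rfc3 (340), and 2 deep. Liver transcription factors and secreted proteins had 4 of 38 near (10.5%, 2.94 to 24.8%) and 8 deep (21.1%, 9.55 to 37.3%), among them Foxa3 (57) and the bile acid receptor gene Nr1h4 (45). Near peaks of this list were at 8 of 38 genes after ERRα knockdown (21.1%) and at 0 after HCFC1 knockdown, and deep ones at 5 in each. The labelled hepatocyte type was set against 12 marker genes: 1 had a near control peak (Hnf4a, score 31) and 2 a deep one. After ERRα knockdown 4 of 12 had a near peak (33.3%, 9.92 to 65.1%) and after HCFC1 knockdown 0. Of 21 markers of other cell types 2 had a near peak, Snap25 (76) and Col1a1 (41), and 0 a deep one, and 1 had a near peak in each knockdown list. A peak is not a measure of expression, so these counts do not check the identity of the cells.

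In the knockdown lists the background was lower, with a near peak at 13.6% of protein-coding genes and a deep one at 4.63% after ERRα knockdown, and at 7.92% and 2.5% after HCFC1 knockdown. Oxidative phosphorylation genes had near peaks at 18 of 71 (25.4%) and 14 of 71 (19.7%), and ribosomal protein genes at 19 of 78 (24.4%) and 18 of 78 (23.1%). The cytoskeleton list had near peaks at 22 of 50 (44%) and 13 of 50 (26%), and deep ones at 6 of 50 (12%) in each, where control cells had 20. ERR receptors, partners and clock genes had near peaks at 12 of 35 (34.3%) and 4 of 35 (11.4%). HCFC1 and its partners had 9 of 37 (24.3%) and 6 of 37 (16.2%). Pyruvate, TCA cycle and fatty acid oxidation genes had 18 and 12 of 54, signalling genes 17 and 8 of 50, cholesterol and fatty acid synthesis 11 and 4 of 36, and cell cycle genes 12 and 9 of 46. The counts follow the label of each list, so a gene whose peak took another label is not counted. Deep control peaks beyond 20 kb, which the knockdown lists do not reach, are counted in the control shares.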

How the data were processed

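HCFC1 peaks of 1 control, 1 ERRα-knockdown and 1 HCFC1-knockdown library were taken from the annotated lists the authors deposited. Tools listed in the submitters' processing notes are HOMER 4.11.1, MACS2 2.1.1.20160309, Picard 2.0.1 and BWA 0.7.12, on mm10; the notes assign no role to a tool or to the IgG libraries. Each deposited peak carries a score of unstated scale, which served for ranks within 1 list. Positions and distances are theirs. Read numbers are not in the lists.

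Overlaps (at least 1 bp), exact binomial 95% intervals and score percentiles were computed with Python 3.11.15, pandas 2.3.3, numpy 2.4.6 and scipy 1.17.1; the overlap code was tested on simulated peaks. A start window was matched when its distance from the peak centre was within 50 bp of the deposited distance. Genes and windows came from RefSeq GRCm38.p6. No p-value was computed.

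The members, gene lists and letters were chosen with earlier results of these data known. Named were the 8 highest near and deep peaks per list, the 6 strongest missing and added ones, up to 4 per gene list, the widest, the farthest, those beside 2000 bp, the genes with most peaks, Hcfc1 and Esrra; the text gives a part, and some items are not reported here. The alternatives were stricter overlap (reciprocal 50%, centres within 200 bp, 400 bp about each centre), limits of 1000 and 5000 bp, higher-scoring 50%, equal length, chromosomes 1 to 19 and X, downstream peaks, same gene, merging within 500 bp and a reach of 20 kb.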

Additional observations from a re-analysis of the deposited data

How the results depend on the processing

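No paired analysis was possible because each group had 1 library. No difference between near and deep peaks changed direction under the alternatives. Values that moved are given as near minus deep in percentage points, or as named, with the list in brackets. Over all deep peaks, the overlap difference was 59.9 (control in ERRα), 36.6 (control in HCFC1), 45.3 (ERRα in control) and 59.5 (HCFC1 in control). Except under the limit within 20 kb, deep control peaks here include those beyond 20 kb. The knockdown lists hardly reach these, which adds to the difference for control peaks. With a reciprocal overlap of 50%, the overlap difference was 42.5 (control in ERRα), 18.1 (control in HCFC1), 40.2 (ERRα in control) and 30.1 (HCFC1 in control). With centres within 200 bp, the overlap difference was 34.1 (control in ERRα), 21.9 (control in HCFC1), 29.4 (ERRα in control) and 34 (HCFC1 in control). With a limit of 1000 bp, near peaks as a percent of first-intron peaks was 37.7 (control), 54.6 (ERRα) and 59.7 (HCFC1). The near to deep width ratio was 2.62 (control), 2.61 (ERRα) and 1.62 (HCFC1). The percentile difference was 42.2 (control), 44.1 (ERRα) and 25.6 (HCFC1). The difference in genes with a promoter-labelled peak was -25.4 (control), -32 (ERRα) and -20.8 (HCFC1). The overlap difference was 65.2 (control in ERRα), 44.7 (control in HCFC1) and 53.1 (ERRα in control). With a limit of 5000 bp, near peaks as a percent of first-intron peaks was 68.2 (control), 86.2 (ERRα) and 84.6 (HCFC1). The near to deep width ratio was 1.64 (control), 2.14 (ERRα) and 1.44 (HCFC1). The percentile difference was 28.8 (control) and 32.1 (ERRα). The difference in genes with a promoter-labelled peak was -8.85 (control), -16.1 (ERRα) and -6.78 (HCFC1). The overlap difference was 56.5 (control in ERRα), 31.1 (control in HCFC1) and 37.5 (ERRα in control). In the higher-scoring 50% of each list, first-intron peaks as a percent of the list was 19.2 (control), 22.2 (ERRα) and 18.8 (HCFC1). Near peaks as a percent of first-intron peaks was 70.9 (control), 90.9 (ERRα) and 83.4 (HCFC1). The near to deep width ratio was 2.23 (control), 1.57 (ERRα) and 1.77 (HCFC1). The percentile difference was 26 (HCFC1). The difference in genes with a promoter-labelled peak was -19.5 (control). The overlap difference was 67.6 (control in ERRα), 31.1 (control in HCFC1), 39.3 (ERRα in control) and 65.6 (HCFC1 in control). With lists of equal length, first-intron peaks as a percent of the list was 19.9 (control). Near peaks as a percent of first-intron peaks was 80.7 (control) and 86.4 (ERRα). The near to deep width ratio was 1.89 (ERRα). The difference in genes with a promoter-labelled peak was -23.3 (control). The overlap difference was 66.6 (control in ERRα), 50.2 (control in HCFC1), 49.3 (ERRα in control) and 63.8 (HCFC1 in control). Downstream of the start alone, first-intron peaks as a percent of the list was 17.2 (control), 20.5 (ERRα) and 19.3 (HCFC1). Near peaks as a percent of first-intron peaks was 55.4 (control), 70.8 (ERRα) and 74.4 (HCFC1). With intron and start in the same gene, first-intron peaks as a percent of the list was 17.6 (control) and 20.8 (ERRα). Near peaks as a percent of first-intron peaks was 54.7 (control). Within 20 kb, first-intron peaks as a percent of the list was 22.9 (control). Near peaks as a percent of first-intron peaks was 60.8 (control). The percentile difference was 32.3 (control). The overlap difference was 53.7 (control in ERRα) and 34.6 (control in HCFC1). With 400 bp about each centre, the overlap difference was 46.1 (control in ERRα), 31.8 (control in HCFC1), 38.6 (ERRα in control) and 50 (HCFC1 in control). The limits within 20 kb and of 400 bp, and the looser letters, were chosen after seeing the data. Leaving out chromosomes other than 1 to 19 and X, and merging peaks within 500 bp, moved none of these values. For the THAP11/ZFP143 letters, top 10% minus other near windows was 1.94 with ACTACAATT. It was 9.39 with the looser letters and 5.8 with these letters but without the 60 strongest peaks. Depth is unknown, so a peak missing from a knockdown list cannot be told apart from a peak below that list's threshold.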

Other observations

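Chromosomes differed in how many near control peaks the HCFC1-knockdown list overlapped. The share was 21.1% on chromosome 12 (16 of 76), 23.1% on chromosome 14 (18 of 78), 25.2% on chromosome 9 (37 of 147) and 21.1% on chromosome X (8 of 38). On the other numbered chromosomes it lay between 37% and 50.2%, and over all near control peaks it was 41.9%. The 4 chromosomes are named because their shares were lowest, and some counts are small. Shares over all control peaks of each chromosome are not given here. Whether the difference is particular to first-intron peaks was not tested. The ERRα-knockdown list overlapped 73.7%, 82.1%, 82.3% and 86.8% of the same peaks in this order, and its lowest share was 64.2%, on chromosome 1. After HCFC1 knockdown chromosomes 12, 14, 9 and X held 4, 4, 3 and 0 deep peaks, where chromosome 2 had 71. Their deep control peaks numbered 31, 48, 61 and 8, against 273 on chromosome 2, 314 on chromosome 1 and 318 on chromosome 15. Chromosome 16 had 37 deep peaks in control and 8 after HCFC1 knockdown.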
